A study of Bos taurus with 8 samples.

Results

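Toll-like receptors (TLRs) are membrane proteins that recognise parts of microbes. TLR4 senses lipopolysaccharide (LPS, the endotoxin of Gram-negative bacteria): LPS-binding protein (LBP) carries LPS to CD14, CD14 hands it to the complex of TLR4 with LY96 (also called MD-2), and the adapter MYD88 and the kinase IRAK1 carry the signal towards NF-κB. TLR2, in pairs with TLR6, senses bacterial lipoproteins, TLR5 senses flagellin, and TLR3, which does not use MYD88, senses double-stranded RNA. The rumen holds a dense community of Gram-negative bacteria, and the rumen epithelium separates their LPS from the blood.

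These 10 genes were looked for on the array through the RefSeq accession of each probe and the symbol that the bovine gene table gives for it. Among 7788 genes named in this way were 8 of the 10, each with 1 probe: TLR2 (NM_174197), TLR4 (NM_174198), TLR5 (NM_001040501), TLR6 (NM_001001159), LY96 (NM_001046517), CD14 (NM_174008), LBP (NM_001038674) and MYD88 (NM_001014382). The gene table gives TLR1 as another name of the TLR6 entry, so the TLR6 probe carries the name that this table assigns. No probe was matched to TLR3 or IRAK1, and both are not analysed here.

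The samples were papillae cut from the ventral rumen sac of 4 ruminally cannulated, lactating Holstein cows (84 ± 25 d in milk at the start) in a crossover of 2 periods. Each cow was sampled on a low-concentrate diet (LC, 40% concentrate of dry matter) and on a high-concentrate diet (HC, 70%), on day 21 of a period and 4 h after feeding, and all cows had been kept on a low-concentrate ration before the trial. Cows 1 and 2 received LC first (period 1) and then HC (period 2), cows 3 and 4 had the reverse order, and each diet group thus had 4 arrays (n = 4). A slide carried the arrays of 1 period, so the effects of slide and of period cannot be told apart.

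Each sample was hybridised to 1 single-colour bovine array, and values are log2 signals after quantile normalisation. Of 21475 probes, 16504 to 17427 per array (76.9 to 81.2%) were well above background by the scanner software's own test, and 16030 were so on all 8 arrays. Papillae are a mixed tissue, and 5 of the 6 epithelium markers with a probe (KRT14, KRT6A, DSP, IVL and DSG1) passed that test on all 8 arrays, whereas TP63 passed it on none. In such bulk samples fewer cells of a type and less RNA per cell cannot be told apart.

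All 8 genes were well above background on all 8 arrays, so RNA of the LPS receptor, its co-receptors and the adapter was measured in every cow on both diets. On the HC diet 6 of the 8 had a higher mean than on the LC diet, with differences from 0.02 (TLR6) to 0.38 (TLR4) on the log2 scale, and TLR5 (-0.08) and MYD88 (-0.02) had a lower mean. Their median difference was 0.05, and over the 16030 probes measured on all arrays it was -0.00, with 8006 of them higher. A diet difference was called when it reached 1.5-fold and had an unadjusted limma P under 0.05, the threshold of the study. Of the 8 genes 0 were called, against 0.922% of all probes (198 of 21475). At an unadjusted P under 0.05 alone 1 of the 8, TLR4, passed, against 3.65% of all probes. After Benjamini-Hochberg adjustment over all probes 0 of the 21475 had a limma P under 0.05 for diet, and the smallest was 0.412.

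TLR4 was the member with the largest diet difference. Its log2 signal on the LC diet was 8.10, 8.0, 7.93 and 8.40 in cows 1 to 4, and on the HC diet it was 8.87, 8.59, 8.33 and 8.17. It was higher on HC in cows 1, 2 and 3, by 0.77, 0.59 and 0.40, and lower by 0.23 in cow 4, so the groups overlapped through cow 4, whose LC array lay above the HC arrays of cows 3 and 4. The means were 8.11 ± 0.20 (SD, n = 4) on LC and 8.49 ± 0.31 (SD, n = 4) on HC. The difference of 0.38 (SE 0.14, 95% interval 0.05 to 0.72) is 1.30-fold, with an unadjusted limma P of 0.0313 that was 1.000 after adjustment. An exact permutation test (two-sided, 4 arrays against 4), which cannot give a P below 0.0286, gave P = 0.0857. Within period 1 the difference was 0.20, and within period 2 it was 0.56. With cow as a block the unadjusted limma P was 0.0445, and with any one of the LC arrays of cows 1, 2 and 3 or the HC arrays of cows 1 and 3 left out it was 0.0586 to 0.0965, with differences of 0.27 to 0.41.

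**Figure D1:**
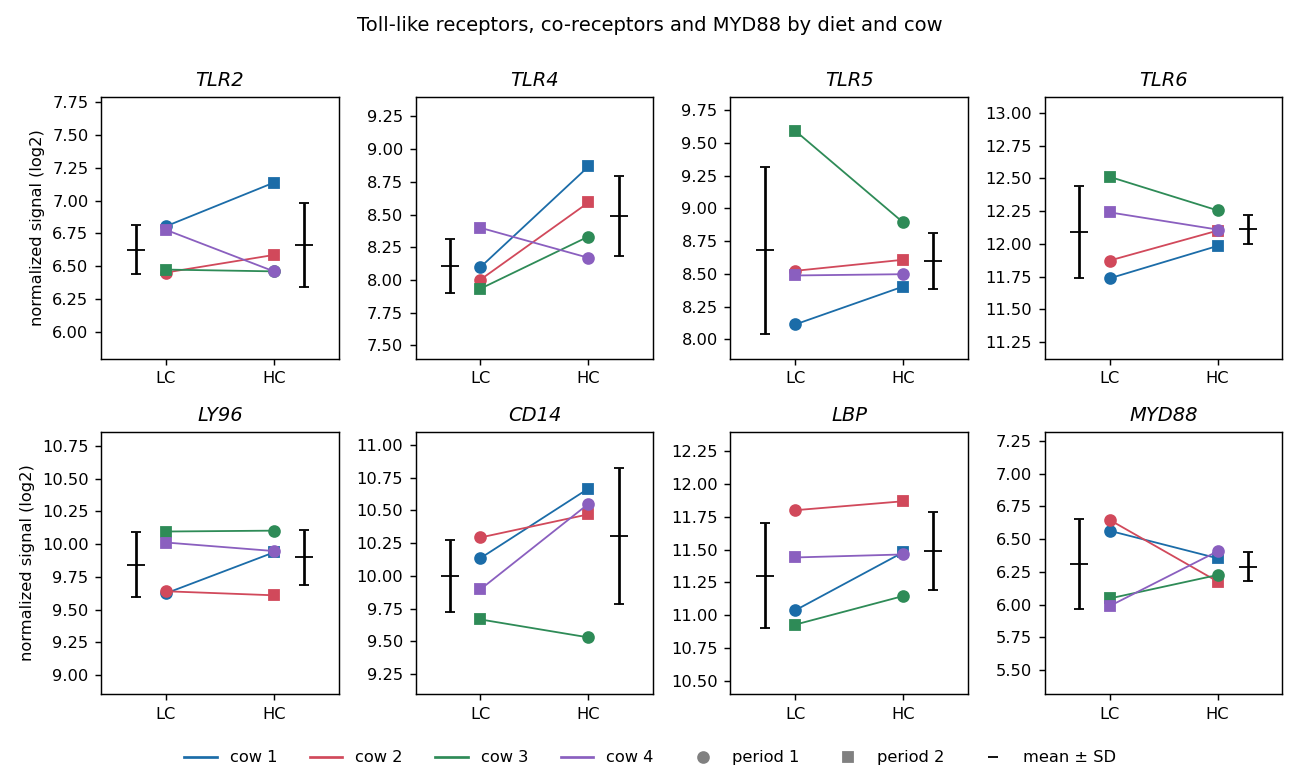
Normalised log2 signal (y axis) of the 8 genes on the LC and HC diets (x axis), with a point for each of the 8 arrays, a line joining the 2 arrays of a cow, the marker's shape giving the period, and bars for the mean ± SD of each diet (n = 4). Each panel spans the same height around its own middle. TLR4 is higher on HC in 3 of 4 cows and LBP in 4 of 4, and the groups overlap for every gene.

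The proteins that bring LPS to TLR4 had smaller or more variable differences. CD14, the membrane or soluble co-receptor, had log2 signals of 10.14, 10.29, 9.67 and 9.90 on LC and 10.67, 10.47, 9.53 and 10.55 on HC in cows 1 to 4. Its HC arrays were above all LC arrays in cows 1, 2 and 4, while the HC array of cow 3 was the lowest of the 8. The means of 10.00 ± 0.27 (SD, n = 4) and 10.30 ± 0.52 (SD, n = 4) differed by 0.31 (SE 0.23, 95% interval -0.25 to 0.86), with an unadjusted limma P of 0.227 and an exact permutation P of 0.314. Cow 3's HC array set much of this spread: without it the difference was 0.56 with an unadjusted limma P of 0.0055, just under 1.5-fold, and leaving out the HC array of cow 4 gave 0.05.

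LBP, best known as an acute-phase protein of the liver, was measured at 11.04, 11.80, 10.93 and 11.44 on LC and at 11.48, 11.87, 11.15 and 11.46 on HC. It was the 1 member that was higher on HC in all 4 cows, by 0.44, 0.07, 0.22 and 0.02, a pattern that 6.0% of all probes had. Cow 2 was highest on both diets. The difference of 0.19 (SE 0.22, 95% interval -0.35 to 0.73) had an unadjusted limma P of 0.431 (0.429 by exact permutation). With the LC array of cow 1 left out it was -0.00.

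LY96, without which TLR4 does not respond to LPS, differed least among the co-receptors. Its log2 signals were 9.62, 9.64, 10.10 and 10.01 on LC and 9.94, 9.61, 10.10 and 9.95 on HC. Cow 1 was higher on HC by 0.31, and the other 3 cows moved by 0.07 or less. The mean difference was 0.06 (SE 0.11, 95% interval -0.20 to 0.32), with an unadjusted limma P of 0.621 and an exact permutation P of 0.886, and it was -0.03 without the HC array of cow 1.

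Among the other receptors, TLR2 had log2 signals of 6.80, 6.45, 6.47 and 6.78 on LC and 7.14, 6.59, 6.46 and 6.46 on HC. The HC array of cow 1 stood highest, cow 4 moved the other way by 0.32, and the mean difference was 0.03 (SE 0.16, 95% interval -0.36 to 0.43). Its partner TLR6 had 11.74, 11.87, 12.51 and 12.24 on LC and 11.98, 12.10, 12.26 and 12.11 on HC. Cows 1 and 2 were higher on HC by 0.25 and 0.23, and cows 3 and 4 were lower by 0.26 and 0.13. The mean difference of 0.02 (SE 0.11, 95% interval -0.23 to 0.28) was therefore an average of differences of opposite sign, and the SD was 0.35 on LC and 0.11 on HC. Cows 1 and 2 had HC in period 2, and cows 3 and 4 had it in period 1. By period each cow thus moved the same way: TLR6 was higher in period 2, by a mean of 0.22 (SE 0.11, unadjusted limma P for period 0.0840).

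TLR5, the flagellin receptor, had log2 signals of 8.11, 8.52, 9.59 and 8.49 on LC and 8.40, 8.61, 8.89 and 8.50 on HC. Cow 3 was highest on both diets, and its LC array stood 1.07 above the next LC array. The difference between the diets was -0.08 (SE 0.26, 95% interval -0.72 to 0.56), the widest interval of the 8, and it was 0.20 without that array. The unadjusted limma P was 0.841 for TLR2, 0.774 for TLR5 and 0.841 for TLR6, and the exact permutation P was 0.83, 0.857 and 0.971.

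MYD88, the adapter that all of these receptors share, had log2 signals of 6.56, 6.65, 6.05 and 5.99 on LC and 6.35, 6.18, 6.23 and 6.41 on HC. The LC arrays of cows 1 and 2 were the highest of the 8 and those of cows 3 and 4 the lowest, with the HC arrays between them. The diet difference was -0.02 (SE 0.09, 95% interval -0.25 to 0.21), with an unadjusted limma P of 0.833 and an exact permutation P of 0.886. For MYD88 the period difference was larger than the diet difference: it was lower in period 2 in 4 of 4 cows, by 0.18 to 0.47, with a mean difference of -0.32 (SE 0.09). The limma P for period was 0.0140 unadjusted and 0.264 adjusted. It was the 1 member of 8 with an unadjusted P under 0.05 for period, against 12.3% of all probes. TLR6 and TLR2 also moved one way between the periods, higher in period 2 in 4 of 4 cows, by 0.13 to 0.26 and 0.01 to 0.33. Their unadjusted limma P for period was 0.0840 and 0.267. The share of all probes that moved one way between the periods in all 4 cows was not counted.

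The diet difference did not have the same sign in both periods for 7 of the 8 genes, TLR4 being the exception. Within a period the difference compares 2 cows with 2 other cows, and the share of all probes whose sign changed was not counted. It was higher in period 1 than in period 2 for TLR6 (0.38 and -0.33), LY96 (0.39 and -0.28) and TLR5 (0.38 and -0.54). It was lower in period 1 for CD14 (-0.17 and 0.79), LBP (-0.11 and 0.49), MYD88 (-0.29 and 0.25) and TLR2 (-0.17 and 0.24). In a crossover of this kind the interaction of diet and period equals a contrast between the pair of cows fed LC first (1 and 2) and the pair fed HC first (3 and 4). TLR6 and LY96 were lower in cows 1 and 2, by means of 11.92 against 12.28 and 9.70 against 10.04, and MYD88 was higher there, with 6.44 against 6.17. In these 3 genes, and also in TLR4 and CD14 (10.39 in cows 1 and 2 against 9.91), both cows of one pair lay above both cows of the other. The share of all probes that separated the pairs in this way was not counted, so this only describes these genes.

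The interaction had an unadjusted limma P under 0.05 in 3 of the 8 genes (TLR6, 0.0140; LY96, 0.0191; MYD88, 0.0288), against 10.2% of all probes, and none passed adjustment. A contrast between cows has 4 cows and not 8 arrays behind it. When limma was given 1 mean per cow, the unadjusted P rose to 0.0552 for TLR6, 0.0519 for LY96 and 0.0662 for MYD88.

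**Figure D2:**
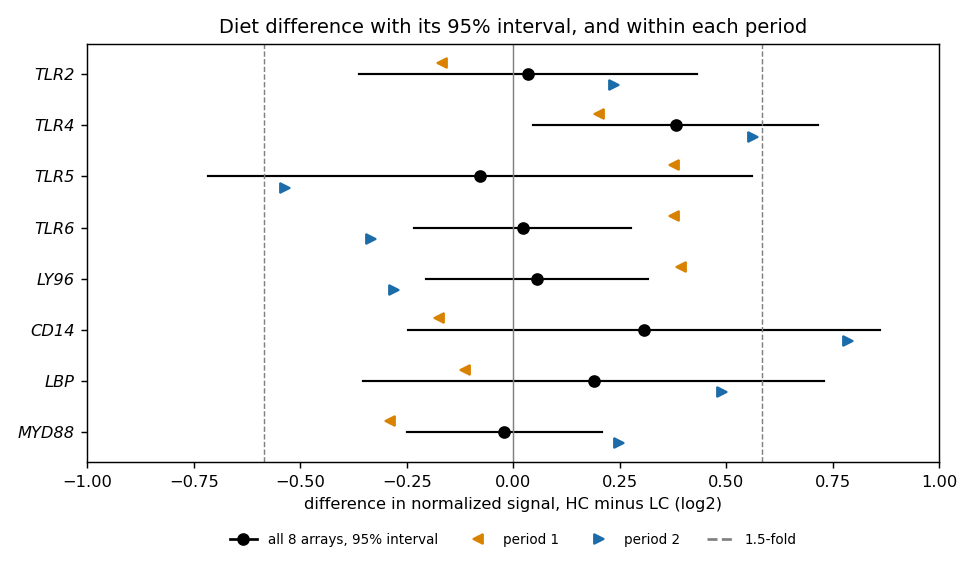
Difference in normalised log2 signal, HC minus LC (x axis), for the 8 genes (y axis), with its 95% interval over all 8 arrays as a line and the differences within period 1 and within period 2 as triangles; dashed lines mark 1.5-fold. Only the interval of TLR4 (0.05 to 0.72) lies above 0, and TLR4 is also the one gene whose triangles are both on the same side of 0. Each triangle compares 2 cows with 2 other cows.

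The level also varied between the cows. The range of the 4 cow means, each over both diets and both periods, was 0.99 on the log2 scale for TLR5, 0.80 for CD14 and LBP, 0.52 for TLR6, 0.50 for TLR2 and 0.48 for LY96. It was smallest for TLR4 (0.35) and MYD88 (0.32).

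Each probe was printed as 2 spots, which gives the technical spread within an array. TLR4 had the largest, with a median difference between its spots of 0.16 (log2) and a highest of 0.31, on the HC array of cow 3. The other 7 genes had medians of 0.02 to 0.09 and no spot difference above 0.19. Spot differences measure the array alone and not the spread between samples. The intensities of TLR4 after background subtraction were 204 to 447, those of TLR2 72.5 to 134 and those of MYD88 53.9 to 104, over a local background of 26 to 33.

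**Figure D3:**
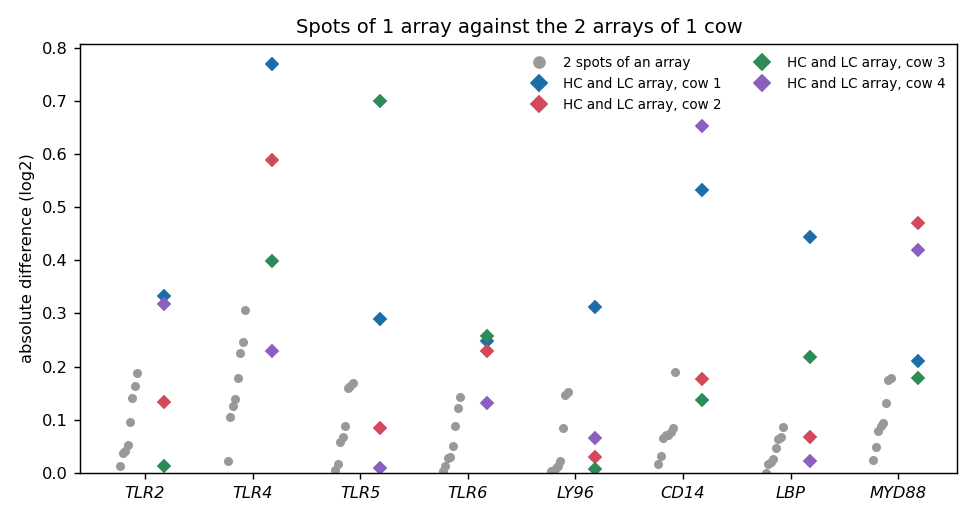
Absolute log2 difference (y axis) for the 8 genes (x axis) between the 2 spots of an array (grey points, 8 arrays) and between the HC and LC arrays of each cow (coloured diamonds). The diamonds also hold period and slide, and the grey points are technical spread only, so their heights are shown side by side and not tested; the grey points reach 0.31 for TLR4 and at most 0.19 for the other 7 genes.

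Other genes of the pathway were looked up in 6 lists. Of their 72 genes 50 had a probe, and 37 of these were well above background on all 8 arrays. Another 5 were so on some arrays (TLR7, TIRAP, CASP4, TNF and PTGS2) and 8 on none (TLR8, TLR9, CD180, SCARB1, NLRP3, IL6, CCL20 and CSF3). Of the 37, 25 were higher on HC, with a median difference of 0.07. Of the 50, 3 passed both thresholds, all of them higher on HC (IL1B, TLR7 and CD180), and 4 had an unadjusted limma P under 0.05, where 0.922% and 3.65% of all probes did so. The study had already listed IL1B and TLR7 as changed on these arrays, and the lists were chosen with earlier results known. These counts are therefore a description. Of the 3, only IL1B was well above background on all 8 arrays. TLR7, a receptor for single-stranded RNA, was well above background on 1 HC array and 0 LC arrays, and CD180, a TLR4-like receptor of B cells, on none, so their folds are left out.

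Of the other receptors and the proteins that help them fold or reach the membrane, 4 of 8 were measured on all arrays, and 0 of these 4 were called. The chaperone CNPY4 was 0.32 lower on HC and lower in 4 of 4 cows (exact permutation P = 0.0857), while 11.0% of all probes moved one way in all 4 cows. LY86, the partner of CD180, was 0.22 higher, and the chaperone HSP90B1 was 0.13 higher. Of the other endotoxin-handling proteins 4 of 5 were measured and 0 called, with a median of 0.07. BPI, an LPS-binding protein of neutrophils related to LBP, was 0.44 higher (SE 0.36), with an unadjusted limma P of 0.264 that became 0.0184 with cow as a block. Its difference was 0.14 without HC cow 2 and 0.75 without HC cow 1. AOAH, which removes acyl chains from LPS, was 0.11 higher and the lipid transfer protein PLTP was 0.03 higher.

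Downstream of the receptors, 12 of the 13 adapters, kinases and ubiquitin ligases with a probe were measured on all arrays. Of the 13, 0 were called, and the median of the 12 was 0.06. TICAM1, the adapter of the MYD88-independent branch, was 0.40 lower on HC (SE 0.27, exact permutation P = 0.2), the kinase IRAK2 was 0.24 higher and TAB2, which links TRAF6 to the kinase TAK1, 0.20 higher. Single arrays moved these values: TICAM1 was 0.71 lower and past both thresholds without the HC array of cow 3 and 0.087 lower without that of cow 4. IRAK2 ran from 0.019 (without LC cow 1) to 0.46 (without LC cow 2, with an unadjusted limma P of 0.0152), and TAB2 from 0.054 (without LC cow 4) to 0.35 (without LC cow 3). Of the 5 negative regulators 0 were called: IRAK3, which holds back MYD88 signalling, was 0.24 higher and higher in 4 of 4 cows, the NF-κB inhibitor NFKBIA was 0.09 higher, and SIGIRR was 0.08 lower and lower in 4 of 4 cows. TAB2 was also higher in 4 of 4 cows, and 11.0% of all probes moved one way in all 4 cows. Of these 2 lists 0 genes had an unadjusted limma P under 0.05, and with cow as a block that of IRAK3 was 0.0383.

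NOD2, a cytoplasmic sensor of bacterial peptidoglycan, was the one of 3 other microbial sensors measured on all arrays with an unadjusted limma P under 0.05. Its log2 signal was 7.86 to 8.01 on LC and 7.98 to 8.31 on HC, higher on HC in 4 of 4 cows, with means of 7.91 ± 0.07 (SD, n = 4) and 8.19 ± 0.15 (SD, n = 4). Of all probes 6.0% were higher on HC in all 4 cows. The groups overlapped through the HC array of cow 3. The difference of 0.28 (SE 0.10) had an unadjusted limma P of 0.0289 and an exact permutation P of 0.0571, was below 1.5-fold and did not pass adjustment. Leaving out any one of 6 arrays, all except LC cow 1 and HC cow 3, raised the limma P to 0.0548 to 0.0948. PGLYRP1, a peptidoglycan-recognition protein, was 0.22 lower, and RIPK2, the kinase downstream of NOD2, 0.02 lower.

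Genes that LPS is known to induce had the largest median, 0.28 over the 9 of 14 measured on all arrays, 7 of them higher on HC, and 1 of the 14 was called, against 0.922% of all probes. The gene called was IL1B, which the study had already listed as changed on these arrays. IL1B, the cytokine interleukin-1β, had log2 signals of 4.60, 5.06, 4.15 and 4.36 on LC and 5.91, 6.28, 4.73 and 3.92 on HC. It was higher on HC in cows 1, 2 and 3 and lower in cow 4, the same cows as for TLR4. The difference of 0.67 (SE 0.22) had an unadjusted limma P of 0.0217 and an exact permutation P of 0.314, and it was -0.51 within period 1 and 1.84 within period 2. After another background correction (normexp) it was 0.23, under 1.5-fold. Its P was 0.214 with diet alone in the model, 0.206 without the interaction and 0.0603 without moderation, and with any one of the LC arrays of cows 1 and 3 or the HC array of cow 2 left out it was 0.0662 to 0.0699. The difference was 0.46, also under 1.5-fold, without the HC array of cow 3. The neutrophil chemokines CXCL8 and CXCL2 were 0.81 and 0.51 higher, with unadjusted limma P of 0.0519 and 0.0788 and exact permutation P of 0.286 and 0.229. CXCL8 passed both thresholds with cow as a random block, with 75th percentile scaling and without dim probes, at limma P of 0.0394 to 0.0419. It also passed without the LC array of cow 4, at 1.19 with P of 0.00113, and was 0.43 without that of cow 3. CXCL2 passed without the HC array of cow 2, at 0.75 with P of 0.00906, and was 0.27 without that of cow 1.

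**Figure D4:**
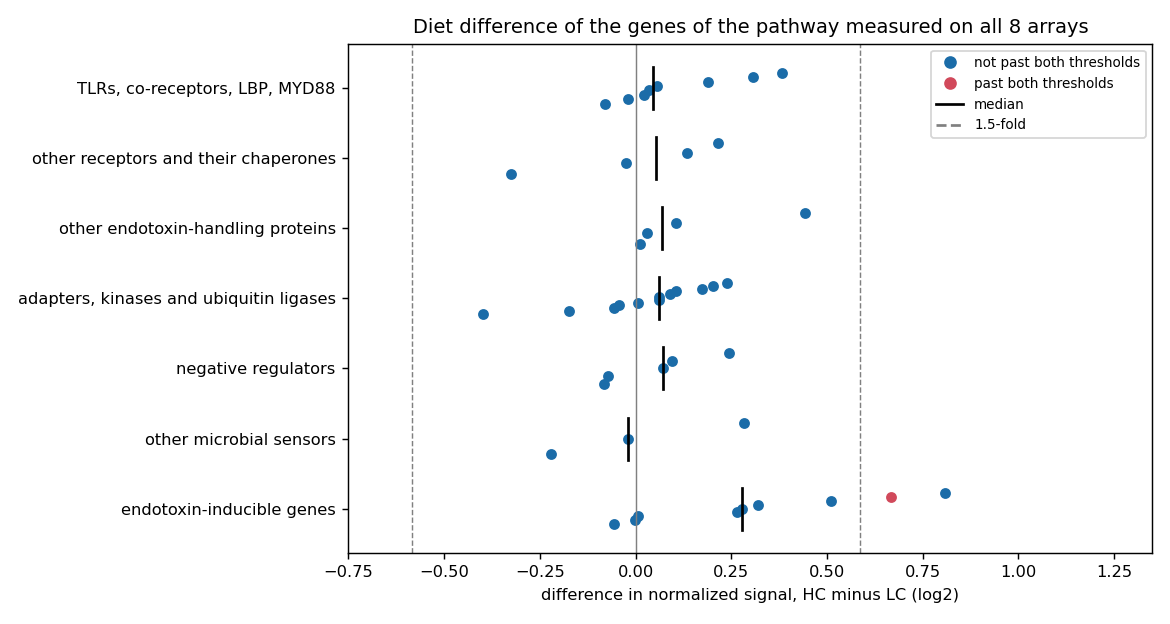
Difference in normalised log2 signal, HC minus LC (x axis), of each gene measured on all 8 arrays, by list (y axis), with the median of each list as a bar and 1.5-fold as dashed lines. The 8 genes of the top row lie between -0.08 and 0.38, and 1 gene of the plot, IL1B in the bottom row, passed both thresholds.

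Macrophages and neutrophils also carry TLR4, CD14 and TLR2. Of 20 leukocyte markers 12 had a probe, 8 stood above background on each array and 0 were called, with a median difference of 0.08 over the 8. MPO, of neutrophils, and ITGAM, of macrophages and neutrophils, were above background on none. These 8 were 5 lymphocyte, 2 macrophage and 1 neutrophil markers. Their mean log2 signal was 7.70 to 7.88 on the LC arrays and 7.65 to 8.05 on the HC arrays. It was highest on the HC array of cow 1, where TLR2, TLR4 and CD14 were also highest. The macrophage markers CD68 and AIF1 together stood at 8.42 on that array, against 7.45 to 8.0 on the other 7, and had diet differences of 0.14 and 0.08. The neutrophil marker did not follow: it was 4.97 on that array and highest, at 5.45, on the HC array of cow 4. The part of leukocytes in the values of TLR2, TLR4 and CD14 was not tested. The 5 epithelium markers measured on all arrays had diet differences of -0.64 to 0.04, with a median of -0.04. Of these 5, 2 were higher on HC and 0 were called.

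Across the 8 arrays the signals of some of the 8 genes moved together. Pearson's r, a description over 8 arrays of 4 cows that share cow, diet and slide, was 0.87 for TLR5 and TLR6, 0.79 for TLR6 and LY96, 0.70 for TLR2 and TLR4, and 0.65 for CD14 and LBP. It was -0.85 for TLR6 and MYD88. TLR4 followed LY96 and CD14, with which it acts, by 0.02 and 0.46.

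The genes most like 5 of the 8 were sought among 1361 or 1362 named genes measured on all arrays whose SD over the 8 arrays was at least 0.3 (log2). The signal of TLR4 was followed most closely by the chemokines CCL22 (r = 0.97) and CCL4 (r = 0.93) and by PRRG4 (r = 0.91). On HC CCL22 was 0.97 higher, CCL4 0.54 higher and PRRG4 0.34 higher. These genes were picked for following TLR4 on the same 8 arrays, so their diet differences come with the choice and are a description.

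TLR2 was followed by SFTPD (r = 0.95), a surfactant protein that binds microbial sugars, SPOCK2 (r = 0.92) and the leukotriene B4 receptor LTB4R (r = 0.89). CD14 was followed by complement C2 (r = 0.93), FZD10 and SULT2B1 (both r = 0.90). LBP was followed by KRT23 (r = 0.95), a keratin, BPI (r = 0.92) and SESN2 (r = 0.91), which like LBP were highest in cow 2 on each diet. LY96 was followed by the angiotensin receptor AGTR1 (r = 0.93), CARF (r = 0.92) and RARRES2 (r = 0.92), the precursor of chemerin. Under the other 3 normalisations these r were 0.81 to 0.97.

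**Figure D5:**
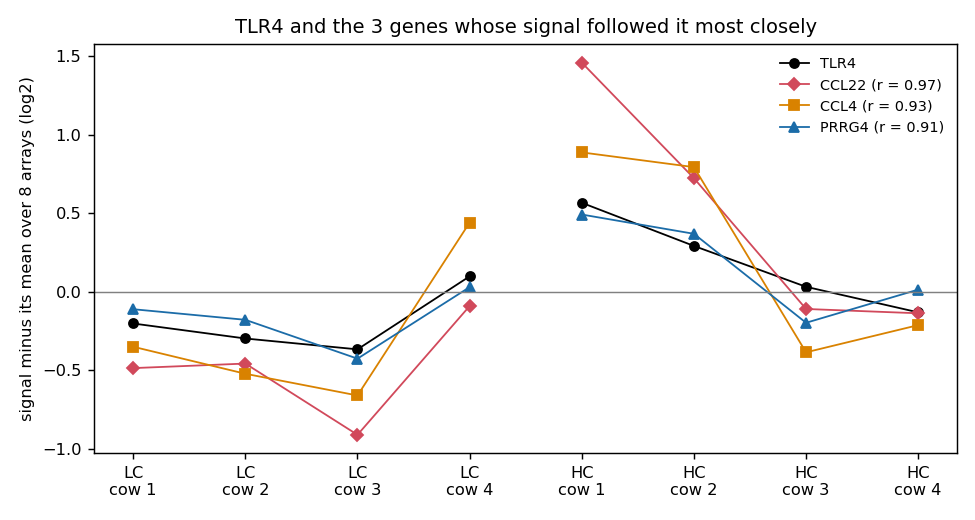
Normalised log2 signal minus its mean over the 8 arrays (y axis) for TLR4, CCL22, CCL4 and PRRG4 on the LC and HC arrays of cows 1 to 4 (x axis). Lines join the arrays of a diet only to guide the eye; in all 4 genes the HC array of cow 1 is the highest and the LC array of cow 3 the lowest, which follows from how the 3 genes were picked.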

How the data were processed

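RNA of rumen papillae from 4 cows, each on both diets, was measured on 8 arrays, and the labels gave the diet, cow and period of each. The deposited scanner files (made with Feature Extraction 10.7.3.1) hold a background-subtracted intensity per spot and had not been normalised between arrays. A deposited table of log2 values, quantile-normalised by the authors, was used as an alternative. The depth is the signal over background, and the number of arrays limits the precision: the lowest signal well above background was 2.02 to 2.77 (log2), and 3487 probes (16.2%) were so on no array. Median intensities per array were 92.1 to 132, and 0 spots were saturated.

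Control spots and the 0 to 13 outlier spots per array were left out, and limma 3.58.1 (R 4.3.3) was used to quantile-normalise the log2 intensities of the spots, which were then averaged per probe. Of 10176 probes with a RefSeq accession 8297 were named through the gene table (ARS-UCD2.0). Positions are not given, since the array design names the build HGSC Btau_3.1. Of several probes of a gene the brightest was taken. As in the study's model, the terms fitted in limma were diet, period and diet by period (no trend, not robust, 4 residual and 2.26 prior degrees of freedom), and the script was tested on simulated data. Single genes also had an exact two-sided permutation test (scipy 1.17.1), which did not use the pairing by cow. Plots were made with matplotlib 3.10.9 and tables with pandas 2.3.3.

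The pairing by cow comes from the labels. Deviations from the diet's mean correlated across 16030 probes with r of 0.285, 0.298, 0.467 and 0.113 between the arrays of cows 1 to 4, and -0.237 to 0.185 between cows. The cows were the separate animals behind each n of 4.

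The members and lists were chosen with earlier results of these data known. Named genes were all members with a probe, and of each pathway list the genes past both thresholds and the 3 with the largest absolute difference among those well above background on all arrays. For TLR4, CD14, LBP, LY96 and TLR2 the 3 genes with the highest r were named. The genes listed as measured on some or no arrays fall outside this rule. Alternatives were the deposited table, normexp on the median signal and median background (the files used hold no mean signal) with an offset of 50, centring on the 75th percentile, leaving out dim probes, other model terms, cow as a block, no moderation, and leaving out each array.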

Additional observations from a re-analysis of the deposited data

Results flagged for a closer look

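A difference between the diets that changed with the period, at an unadjusted limma P under 0.05, was found in 6 of the 26 genes examined (the 8 members and the 18 named genes of the pathway lists, the latter named for their large diet differences), and in 10.2% of all probes. As the diet difference in period 2 minus that in period 1 (log2), it was -0.71 for TLR6, -0.67 for LY96, 0.54 for MYD88, 0.61 for HSP90B1, 2.35 for IL1B and 2.01 for CXCL8. The unadjusted limma P on the cow means was 0.0552 for TLR6, 0.0519 for LY96, 0.0662 for MYD88, 0.0628 for HSP90B1, 0.0042 for IL1B and 0.00902 for CXCL8, and none of the 6 passed adjustment. Period and slide cannot be told apart here. Nor can a diet difference that changes with the period and a difference between cows 1 and 2 and cows 3 and 4. In the 52 groups of 4 arrays examined 0 had an array standing apart by Dixon's test.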

How the results depend on the processing

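Under the 17 alternatives 0 of the 8 members passed both thresholds. The number with an unadjusted limma P under 0.05 for diet was 0 with diet alone in the model (TLR4 had a P of 0.0581), 0 without moderation (TLR4 had a P of 0.0558) and 0 to 1 with each array left out. It was 0 without any one of the LC arrays of cows 1, 2 and 3 or the HC array of cow 1, and the 1 without the HC array of cow 3 was CD14. TLR4 was higher on HC under 17 of 17, by 0.27 to 0.50, with P under 0.05 under 10, and CD14 under 17 of 17, by 0.05 to 0.56. With cow as a replicate block (fixed) the count was 1, TLR4 with a limma P of 0.0445, and with cow as a random block P was 0.0204, so the pairing changed no call of a member for diet. Of the other genes named it brought BPI (0.0184) and IRAK3 (0.0383) under 0.05 as a fixed block and CXCL8 (0.0417) past both thresholds as a random block. Without HC cow 4, CNPY4 (0.0201) and PGLYRP1 (0.0161) also had P under 0.05. MYD88 was lower in period 2 under 16 of 16 (P under 0.05 in 16), and the interaction had P under 0.05 under 13 of 14 for TLR6, 10 for LY96 and 8 for MYD88, whose P with a random block was 0.0552. Probes past both thresholds numbered 198, and 415 in the deposited table, 8 with normexp, 75 without dim probes, 105 without moderation, 276 and 266 with a fixed and a random block of cow, and 239 (without LC cow 3) to 404 (without LC cow 4) with each array left out; without LC cow 2, HC cow 2, HC cow 3 and HC cow 4 it was 334, 391, 356 and 378. The causes were not tested. Differences near 0 changed sign only with arrays left out: TLR2 (-0.10 to 0.17; negative without LC cow 2, LC cow 3 or HC cow 1), TLR5 (-0.36 to 0.20; positive without LC cow 2, LC cow 3 or HC cow 4), TLR6 (-0.046 to 0.090; negative without LC cow 1, LC cow 4, HC cow 2 or HC cow 3), LY96 (-0.026 to 0.14; negative without HC cow 1), LBP (-0.0029 to 0.38; negative without LC cow 1), MYD88 (-0.066 to 0.025; not negative without LC cow 2, HC cow 2 or HC cow 3), AOAH (-0.25 to 0.46), PLTP (-0.12 to 0.18) and RIPK2 (-0.13 to 0.092). Averaging the probes of a gene touches only AOAH among the named genes, and a slide block is the period term of the model. Signal over background limits TLR7, CD180 and the other genes not measured on all arrays.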
